A study of Mus musculus with 6 samples.

Results

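The transcripts of 10 transcription factor genes, 8 of the AP-1 type (Fos, Fosb, Fosl2, Jun, Junb, Jund, Atf3 and Batf) and 2 of the early growth response type (Egr1 and Egr2), were compared in mouse bone marrow-derived macrophages with and without the chemokine CCL7. The genes were taken by symbol from a table of 25711 genes, in which each of the 10 symbols stood on 1 entry. RNA was sequenced from wild-type cells in both groups, with 3 control libraries at 24 h and, at the same time, 3 libraries treated with CCL7 at 500 ng/ml. The series asks how CCL7 relates to macrophage polarization in rheumatoid arthritis. The sources used here do not state whether replicates were different cultures or mice. The p-values therefore cover the variation among 6 libraries, which could be technical in part or in whole.

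AP-1 is a dimer of basic leucine zipper proteins. Fos proteins cannot pair with each other and bind DNA mainly with a Jun partner. Jun proteins pair among themselves, with Fos proteins or with ATF and BATF proteins, so the makeup of the pool sets which dimers can form. ATF3 is known in mouse macrophages as a repressor of inflammatory genes induced through Toll-like receptors, and BATF is a small partner of Jun proteins that lacks a transactivation domain. EGR1 and EGR2 are zinc finger factors that bind GC-rich sites, and most of the genes described here are classical immediate early genes, whose transcripts peak soon after a stimulus and decay fast.

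Of the 10 genes, 9 had a mean FPKM (counts scaled by gene length and library total) of at least 1 and entered the test across 11143 genes, edgeR's quasi-likelihood test with Benjamini-Hochberg adjustment at 0.05. With CCL7, 6 of the 9 were higher (Egr1, Batf, Fos, Fosl2, Junb and Jund), 1 was lower (Atf3) and 2 did not pass (Jun and Egr2). Fosb, below that mean, was lower in a fit without the filter. The background was high: 69.1% of all genes tested passed, 33.9% higher and 35.2% lower. The 3779 higher and 3919 lower genes became 2306 and 5949 when libraries were scaled by their deposited totals, and the median over all tested genes then lay at -0.25 on the log2 scale in place of -0.01. A 2-fold rise that also passed was rarer, at 7.71% of genes, and 4 of the 9 (Egr1, Batf, Fos and Fosl2) had one. Egr1, at 0.252 FPKM in the controls, passed the filter only through the CCL7 libraries, where it is high, so its rise was bound to be counted. In the 8 genes that averaged 1 FPKM or more within each group, 5 were higher, 3 of them 2-fold, 1 was lower and 2 did not pass. A 2-fold fall that passed was seen in 8.69% of genes and in 1 of the 9, Atf3. The groups did not overlap in 7 of the 9 genes, against 73.7% of all genes tested.

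The libraries held 34860523 to 51161400 counts. Within groups Pearson's r across the tested genes was 0.992 to 0.995, and CCL7 replicate 2 stood apart from the other CCL7 libraries in counts (chi-square per degree of freedom 37.3 and 35.4, against 8.26 between replicates 1 and 3). Without it 6 of the 9 tested genes passed, Jund being the one lost. Macrophage markers defined both groups, with all 10 tested and a summed FPKM of 11577 to 12189 in the controls and 20695 to 21999 with CCL7, and 6 of them were higher and 3 lower. Summed FPKM of monocyte markers ran from 10.8 to 14.5 and from 4.18 to 5.44, and that of neutrophil markers from 1.23 to 1.56 and from 14.2 to 21.1. Of the neutrophil list 7 of 10 genes were in the table and 1, S100a8, passed the filter, rising from 0.813 CPM (counts relative to the TMM-scaled library size) to 12.2 CPM. Camp was at 0.0766 and 1.24 CPM and Ly6g at 0 and 0.0141 CPM, both below the filter. Among the monocyte markers Cx3cr1 fell from 51.7 to 18.1 CPM, while Ly6c2, below the filter, was at 0.0437 and 3.35 CPM. Dendritic cell markers summed to 8.78 to 11.4 and 6.90 to 8.66. Lymphocyte markers summed to 1.67 to 2.00 and 0.926 to 1.003, and endothelial markers to 2.54 to 3.04 and 1.56 to 1.75. All these sums are on the scale of the deposited totals, unlike the CPM values. The dendritic cell, lymphocyte and endothelial lists each had 1 tested gene. Itgax was at 41.3 and 39.9 CPM (log2 change -0.05 ± 0.17, edgeR adjusted p = 0.738), while Cd4 (-0.71 ± 0.11) and Kdr (-0.66 ± 0.10) were lower. Cd4 passed the filter only through the controls, so its fall was bound to be counted. Below the filter, Pecam1 was at 0.156 and 0.742 CPM, Cdh5 at 0.473 and 0.693 CPM and Tek at 0.0624 and 0.0141 CPM. Without the filter Pecam1 was higher (log2 change 2.24), while Cdh5 and Tek did not pass. The endothelial genes thus did not all move with Kdr. Stromal, chondrocyte, erythroid and mast cell markers each summed to at most 0.670 in any library; chondrocytes are named here because the extraction protocol covers them too. The part of these markers in the results was not tested, and in bulk RNA fewer cells of a type and less RNA per cell cannot be told apart.

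Immediate early genes are known for short elements near the start site, such as the cAMP response element and the serum response element, whose core is the CArG box. Windows of 5 genes are printed, chosen after the motif search because each holds the core of the former: Fos, Junb and Batf, which rose, Atf3, which fell, and Egr2, which did not pass the test and also holds a CArG box. Fosb, which holds that core too, is not printed. RefSeq promoter windows, from 250 bases before to 50 after the annotated start in GRCm38.p6, were matched by symbol for 9 of the 10 genes, all but Egr1. In lower case with the matches to TGACG (the core of the cAMP response element TGACGTCA), CCGGAA (the ETS core) and the CArG box in capitals, on either strand, they read 5′ to 3′ as follows. The RefSeq starts of the Atf3, Batf and Egr2 windows printed here lie inside the GENCODE genes, downstream of their annotated starts.
Fos (chr12:85473640-85473939, plus strand): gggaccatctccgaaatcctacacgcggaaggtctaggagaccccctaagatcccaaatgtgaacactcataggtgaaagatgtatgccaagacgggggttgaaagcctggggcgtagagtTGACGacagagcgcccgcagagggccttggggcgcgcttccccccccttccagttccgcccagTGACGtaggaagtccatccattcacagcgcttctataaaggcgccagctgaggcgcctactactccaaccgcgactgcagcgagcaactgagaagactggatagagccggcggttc
Junb (chr8:84978699-84978998, minus strand): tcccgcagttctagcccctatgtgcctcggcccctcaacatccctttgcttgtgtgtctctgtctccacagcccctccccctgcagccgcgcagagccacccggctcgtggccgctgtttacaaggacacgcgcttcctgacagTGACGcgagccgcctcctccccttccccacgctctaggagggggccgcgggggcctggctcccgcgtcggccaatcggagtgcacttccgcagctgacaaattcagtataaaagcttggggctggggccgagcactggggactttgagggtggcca
Batf (chr12:85686470-85686769, plus strand): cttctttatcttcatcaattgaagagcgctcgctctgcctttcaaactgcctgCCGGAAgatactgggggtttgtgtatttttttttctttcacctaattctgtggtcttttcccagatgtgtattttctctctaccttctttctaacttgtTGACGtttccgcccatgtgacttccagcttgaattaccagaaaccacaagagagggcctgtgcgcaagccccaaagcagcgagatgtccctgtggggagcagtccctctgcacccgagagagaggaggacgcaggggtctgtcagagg
Atf3 (chr1:191183284-191183583, minus strand): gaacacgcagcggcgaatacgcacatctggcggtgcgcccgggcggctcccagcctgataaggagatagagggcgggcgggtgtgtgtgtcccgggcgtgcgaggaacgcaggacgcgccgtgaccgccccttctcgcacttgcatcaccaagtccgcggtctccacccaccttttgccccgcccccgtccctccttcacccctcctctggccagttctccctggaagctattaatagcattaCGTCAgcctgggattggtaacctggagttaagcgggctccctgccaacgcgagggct
Egr2, the third of 5 annotated windows (chr10:67537619-67537918, plus strand): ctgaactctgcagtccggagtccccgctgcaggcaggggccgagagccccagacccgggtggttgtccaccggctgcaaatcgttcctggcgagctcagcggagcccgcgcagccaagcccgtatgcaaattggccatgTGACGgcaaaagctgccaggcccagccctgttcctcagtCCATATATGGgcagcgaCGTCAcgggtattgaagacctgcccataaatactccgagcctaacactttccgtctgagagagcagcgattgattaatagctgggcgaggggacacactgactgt

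The letters TGACG stood in a window of 6 of these 9 genes (Fos, Fosb, Junb, Atf3, Batf and Egr2), beside 20.8% of all 32851 windows, and so both in genes that rose and in Atf3, which fell. In Fos they began 129 and 66 bases before the start, and in Atf3 at 7 bases before it on the opposite strand. The full TGACGTCA (1.79% of windows) and the AP-1 site TGANTCA (7.81%) were found in none of the 9. A CArG box (1.63% of windows) was found among the 9 only in Egr2, in 4 of its 5 windows, 3 of which overlap and hold the same box. The EGR site GCGNGGGCG (5.55% of windows) was found in Fosb and Fosl2, and the ETS core (14.9%) in Batf and Egr2. A loose NF-kB motif, held by 50.8% of all windows, was in 6 of the 9 (Fos, Fosb, Fosl2, Jun, Atf3 and Egr2). The window of Jund (chr8:70697489-70697788) held none of the motifs. It ends before the GENCODE start of the gene at 70698949, so it does not reach the gene that was counted. A match describes letters in the window, not a bound site. Bases farther than 250 before the start were not searched, so a missing match, such as that of a CArG box in Fos, holds for the window only.

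Fos, the partner that stabilises AP-1 dimers with Jun proteins, rose 3.28-fold. Fos (ENSMUSG00000021250, GRCm38 chromosome 12, 85473890 to 85477273, plus strand, protein-coding) was at 25.6, 21.2 and 25.6 CPM in the controls and 72.6, 84.2 and 80.5 CPM with CCL7. Every CCL7 library lay above every control. The log2 change was 1.72 ± 0.11 (SE, n = 3 per group here and below; edgeR adjusted p = 3.07e-08).

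Fosl2, which encodes FRA-2, a Fos protein without the strong transactivation domain of FOS, rose 2.28-fold. Fosl2 (ENSMUSG00000029135, chromosome 5, 32135801 to 32157842, plus strand) was at 40.5, 41.8 and 42.0 CPM in the controls and 104, 82.3 and 97.5 CPM with CCL7. The controls were nearly level and the CCL7 libraries spread more, with replicate 2 lowest. The log2 change was 1.19 ± 0.10 (edgeR adjusted p = 3.46e-07). Fos and Fosl2 ordered the CCL7 libraries in opposite ways, since replicate 2 was highest for Fos and lowest for Fosl2.

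Fosb, a Fos family gene best known for its accumulation in neurons after repeated stimuli, was scarce and went the other way. Fosb (ENSMUSG00000003545, chromosome 7, 19302696 to 19310051, minus strand) had 20, 36 and 21 counts in the controls and 6, 5 and 12 with CCL7. All 3 CCL7 libraries lay below all controls. In the fit without the filter, where 18.9% of 25711 genes were called lower, its log2 change was -1.68 ± 0.42 (edgeR adjusted p = 0.00106). With edgeR's own expression filter, an alternative added after seeing the data, the adjusted p was 0.00427.

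Junb, which pairs with Fos and BATF proteins and activates many promoters less strongly than JUN, rose 1.77-fold. Junb (ENSMUSG00000052837, chromosome 8, 84974484 to 84978718, minus strand) was at 106, 104 and 108 CPM in the controls and 177, 190 and 195 CPM with CCL7. The groups were far apart for their spread, with a log2 change of 0.82 ± 0.04 (edgeR adjusted p = 2.08e-07). The exons of Junb share 173 bases with those of Prdx2 on the opposite strand, the gene of the antioxidant enzyme peroxiredoxin 2. Since no source used here says whether strand was used in counting, reads from those bases cannot be told apart. Prdx2 was itself higher with CCL7, at 133 ± 3.86 CPM in the controls and 208 ± 22.0 CPM with CCL7 (log2 change 0.64 ± 0.09, edgeR adjusted p = 1.97e-05).

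Jun, the founding AP-1 gene, whose protein is activated through phosphorylation by JNK kinases, did not pass the test. Jun (ENSMUSG00000052684, chromosome 4, 95049034 to 95052222, minus strand, 1 exon) was at 107, 113 and 106 CPM in the controls and 110, 108 and 105 CPM with CCL7. The groups overlapped. Its log2 change was -0.01 ± 0.04, with a 95% interval from -0.11 to 0.09 (edgeR adjusted p = 0.886). With the deposited library totals in place of TMM it was -0.25 (edgeR adjusted p = 0.00119), which is also where the median of all genes tested then lay. With quantile normalization Jun also passed as lower (-0.12, limma adjusted p = 0.0458), while that median lay at -0.01. The gene shares 232 exonic bases with the antisense transcript Junos, which had 446 counts over all 6 libraries.

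Jund, usually the most constant Jun gene and an antagonist of growth in many cells, showed a small rise that depended on the scaling. Jund (ENSMUSG00000071076, chromosome 8, 70698949 to 70700616, plus strand, 1 exon) was at 15.7, 15.7 and 16.9 CPM in the controls and 17.4, 20.7 and 18.8 CPM with CCL7. The closest libraries of the 2 groups were 16.9 and 17.4 CPM. The log2 change was 0.24 ± 0.08 (edgeR adjusted p = 0.0202), and it was 0.00 with the deposited totals. Without control replicate 1, control replicate 2 or CCL7 replicate 2 the adjusted p was 0.0659, 0.0706 and 0.0511. An antisense gene of GENCODE M21, Gm11175, covers 877 of its exonic bases and was not analysed here.

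Batf rose 6.62-fold, the second largest change of the 10. Batf (ENSMUSG00000034266, chromosome 12, 85686669 to 85709087, plus strand) was at 3.98, 3.56 and 2.72 CPM in the controls and 21.9, 25.3 and 20.9 CPM with CCL7. All CCL7 libraries lay far above all controls. On the log2 scale the change was 2.73 ± 0.18 (edgeR adjusted p = 2.42e-08). Per length, Batf went from 5.28% ± 1.03 of the Junb FPKM to 19.9% ± 2.13 (SD).

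Atf3 was the only one of the 9 tested genes that fell with TMM scaling. Atf3 (ENSMUSG00000026628, chromosome 1, 191170296 to 191218039, minus strand) was at 269, 256 and 261 CPM in the controls and 116, 139 and 119 CPM with CCL7. Each CCL7 library was well below each control, with replicate 2 the nearest to them. On the log2 scale the change was -1.07 ± 0.09, a 2.10-fold fall (edgeR adjusted p = 2.86e-07). It began as the most abundant of the 10, at rank 293 of 11143 by control FPKM, and stood at rank 860 with CCL7, behind Junb at rank 591.

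**Figure D1:**
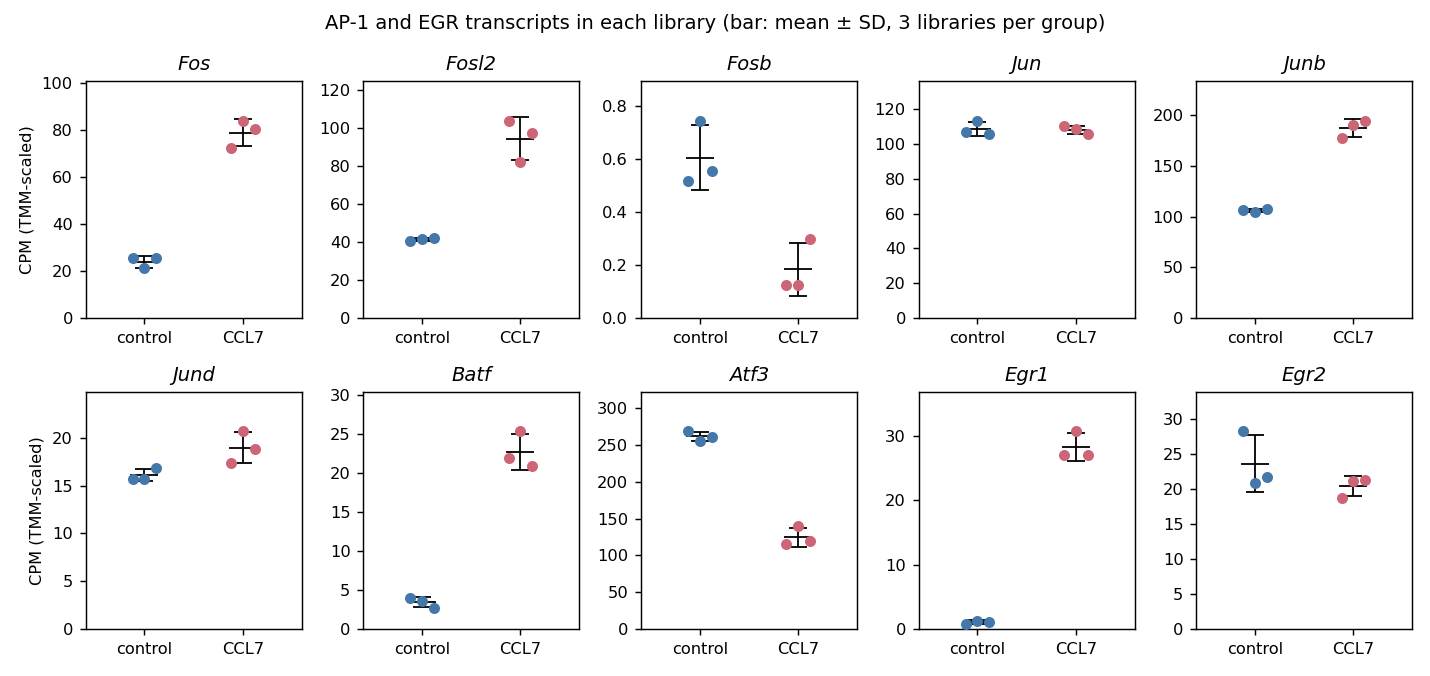
CPM (TMM-scaled) of the 10 genes in each library, control in blue and CCL7 in red, each panel with its own axis from 0; black bars are the mean ± SD of 3 libraries. The CCL7 libraries lie above the controls for Fos, Fosl2, Junb, Jund, Batf and Egr1, below them for Fosb and Atf3, and overlap them for Jun and Egr2.

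The early growth response genes parted. Egr1, an immediate early factor driven by ERK signalling through the serum response factor, had the largest change of the 10 at 26.7-fold. Egr1 (ENSMUSG00000038418, GRCm38 chromosome 18, 34859823 to 34864984, plus strand) was at 0.698, 1.28 and 1.14 CPM in the controls and 27.0, 30.7 and 27.0 CPM with CCL7. These rest on 27, 62 and 43 control counts, against 1276, 1237 and 1081. The 3 CCL7 libraries were close to each other, while the controls varied more relative to their mean (a coefficient of variation of 29.3%, the highest of the 9 tested genes, beside a median of 3.98% for all genes tested). On the log2 scale Egr1 changed by 4.74 ± 0.27 (edgeR adjusted p = 9.37e-10), rank 77 of 11143 genes by rise.

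Egr2, which in mouse macrophages is also used as a marker of the alternative state, did not pass the test. Egr2 (ENSMUSG00000037868, chromosome 10, 67535475 to 67542188, plus strand) was at 28.3, 20.9 and 21.7 CPM in the controls and 18.8, 21.2 and 21.3 CPM with CCL7. Control replicate 1 was the highest and the remaining libraries overlapped. Its log2 change was -0.21 ± 0.15, with a 95% interval from -0.63 to 0.21 (edgeR adjusted p = 0.1198). It passed as lower with the deposited totals (-0.45, edgeR adjusted p = 0.00472) and with upper-quartile scaling (-0.29, edgeR adjusted p = 0.0397).

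**Figure D2:**
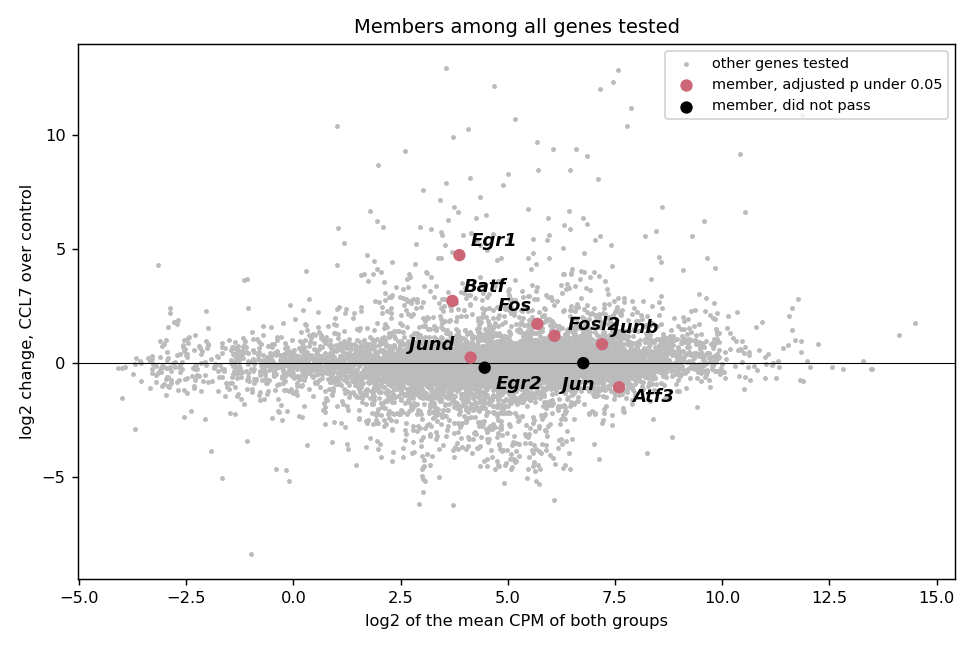
Log2 change with CCL7 against the log2 of the mean CPM of both groups for the 11143 genes tested (grey), with the 9 tested AP-1 and EGR genes named; red points passed an adjusted p of 0.05 and black points did not. Egr1 (4.74) and Batf (2.73) lie highest among the named genes and Atf3 (-1.07) lowest.

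The makeup of each family changed along with the levels. Shares of summed FPKM are taken within a library, so they do not depend on how libraries are scaled, and they are descriptions without a test. Among Jun, Junb and Jund, the share of Junb was 51.8%, 50.2% and 51.9% in the controls and 63.1%, 64.0% and 65.6% with CCL7. That of Jun was 37.6%, 39.3% and 36.8% and then 28.3%, 26.3% and 25.6%. Junb was thus the leading Jun transcript in every library, further ahead of Jun in those with CCL7. Jund made up 10.8% ± 0.412 (SD, n = 3) and then 8.99% ± 0.561 of the sum.

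Among the Fos genes the order stayed Fos, Fosl2, Fosb in every library. Fos held 71.8%, 67.0% and 71.1% of the summed FPKM in the controls and 74.1%, 80.8% and 77.2% with CCL7. Fosl2 held 27.6%, 32.1% and 28.4% and then 25.8%, 19.2% and 22.7%. Fosb was at most 0.887% in any library. The summed FPKM of the Fos genes relative to that of the Jun genes was 0.170, 0.149 and 0.170 in the controls and 0.341, 0.343 and 0.344 with CCL7, so Jun transcripts outnumbered Fos transcripts per length in every library, by less with CCL7.

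Atf3 held 53.8%, 52.8% and 53.0% of the summed FPKM of the 8 AP-1 genes in the controls and 23.1%, 25.3% and 22.7% with CCL7. That sum was 248 ± 4.02 FPKM in the controls and 225 ± 9.41 with CCL7 on the scale of the deposited totals. On that scale the median log2 change of all genes tested was -0.25, so no direction is read from the sum. Egr1 made up 1.84%, 4.45% and 3.81% of Egr1 plus Egr2 in the controls and 52.2%, 52.4% and 49.0% with CCL7. Egr2 was the main EGR transcript of the 2 without CCL7, and with it both were near the same level per length, at 5.80 ± 0.398 FPKM for Egr1 and 5.53 ± 0.381 for Egr2.

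**Figure D3:**
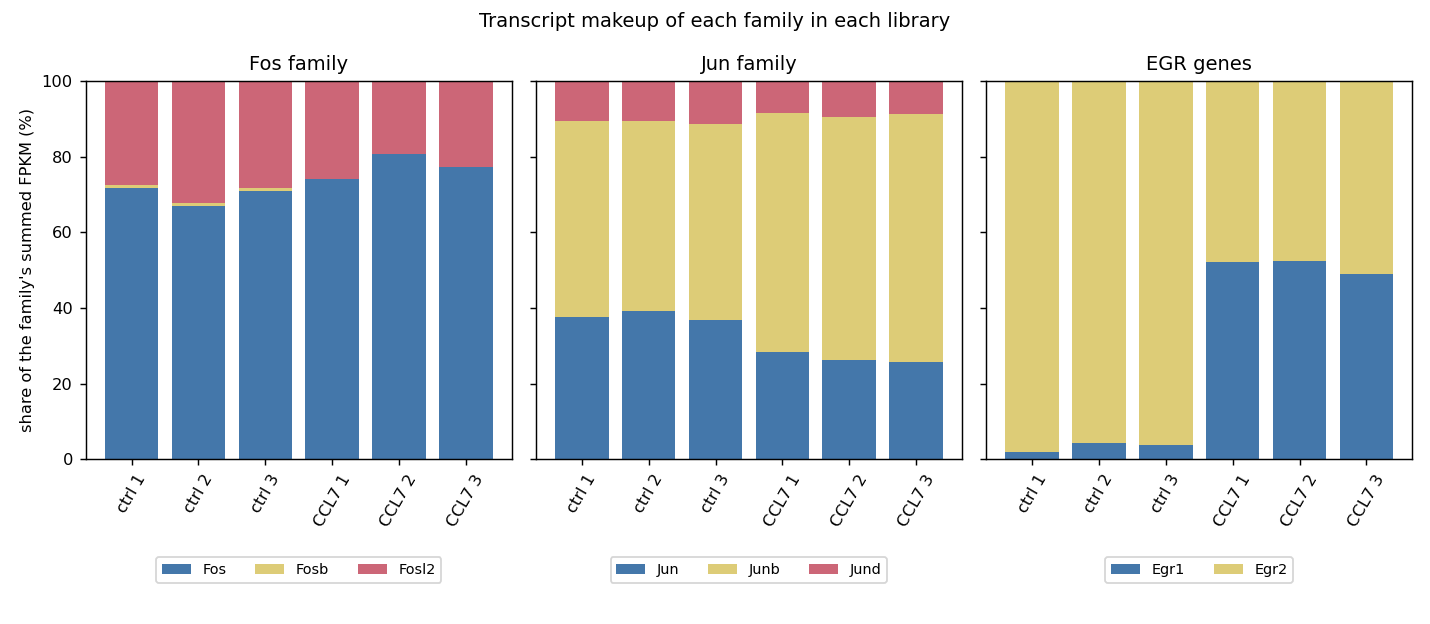
Share of each gene in the summed FPKM of its family in each of the 6 libraries (percent, stacked to 100), with the Fos genes left, the Jun genes in the middle and Egr1 with Egr2 right. With CCL7 the Junb share is 63.1% to 65.6% against 50.2% to 51.9% in the controls, and the Egr1 share 49.0% to 52.4% against 1.84% to 4.45%.

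By control FPKM the order of the 10 was Atf3 (132 ± 3.47, SD), Junb (50.05 ± 0.833), Jun (37.0 ± 1.34), Fos (11.1 ± 1.18), Jund (10.5 ± 0.423), Egr2 (7.55 ± 1.30), Fosl2 (4.65 ± 0.0895), Batf (2.64 ± 0.496), Egr1 (0.252 ± 0.0734) and Fosb (0.105 ± 0.0211). Fos and Jund did not differ beyond their spread. With CCL7 the order was Junb (75.0 ± 3.62), Atf3 (53.3 ± 5.08), Jun (31.2 ± 0.650), Fos (31.0 ± 2.19), Batf (14.9 ± 1.41), Jund (10.5 ± 0.848), Fosl2 (9.01 ± 1.12), Egr1, Egr2 and Fosb (0.0271 ± 0.0150). There Jun and Fos, and Egr1 and Egr2, lay within their spread of each other, and the libraries of Jund and Fosl2 overlapped. Junb and Atf3 changed places at the top, and Batf passed Jund, Egr2 and Fosl2.

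**Figure D4:**
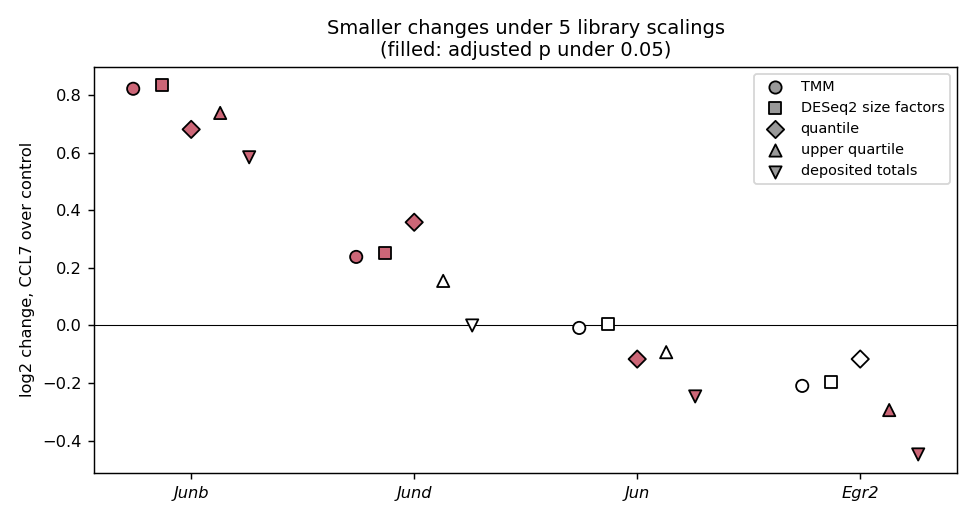
Log2 change of Junb, Jund, Jun and Egr2 under 5 ways of scaling the libraries, each with its own marker shape; filled points had an adjusted p under 0.05. Junb is above 0 and filled under all 5, whereas Jund runs from 0.36 to 0.00, Jun from 0.00 to -0.25 and Egr2 from -0.12 to -0.45.

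The genes whose profile over the 6 libraries was nearest to that of Egr1, by Euclidean distance of log2 CPM minus the control mean, were Gm7818 (distance 0.36), Plpp1 (0.38) and Met (0.54). Their log2 changes were 4.63, 4.70 and 4.84. For Atf3 they were Gdf3 (0.07), Sptssa (0.08) and Lsm2 (0.10), with log2 changes of -1.10, -1.10 and -1.05.

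Of 4 close relatives of the AP-1 genes, 2 passed the filter and both rose. Batf2, a BATF relative induced by interferon, rose by 2.14 ± 0.06 on the log2 scale, from 2.36 to 10.4 CPM, and Jdp2, a Jun-binding repressor, by 1.63 ± 0.07, from 13.4 to 41.2 CPM. Fosl1, which encodes FRA-1, and Batf3, a factor of cross-presenting dendritic cells, were below the filter at 0.0624 and 1.26 CPM in the controls and 0.629 and 1.02 CPM with CCL7. In the fit without the filter Fosl1 was higher (log2 change 3.29) and Batf3 did not pass (-0.26, edgeR adjusted p = 0.466). The rises of Batf2 and Jdp2 passed under all 5 scalings.

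Of 13 ATF and CREB genes, 5 rose, 3 fell and 5 did not pass, with a median of 0.05. Over 5 scalings 4 to 5 rose and 3 to 8 fell. Ddit3, the stress factor CHOP, rose by 0.83 ± 0.11, Atf6b, a relative of the endoplasmic reticulum stress sensor ATF6, by 0.75 ± 0.02, and Atf4, the main factor of the integrated stress response, by 0.56 ± 0.03. Atf5, an ATF4 relative, rose by 0.51 ± 0.04 and Atf6 fell (-0.55 ± 0.05).

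The wider bZIP genes split evenly, with 8 of 16 tested higher, 7 lower and Mafk (0.10 ± 0.06) not passing. Maff, a small MAF protein, rose by 2.88 ± 0.22 and passed the filter only through the CCL7 libraries. Within the C/EBP family Cebpd (2.08 ± 0.06) and Cebpb (1.98 ± 0.07), factors of acute-phase and inflammatory genes, rose, while Cebpa, a factor of myeloid differentiation, fell (-1.80 ± 0.05). Dbp, an output gene of the circadian clock, fell (-2.23 ± 0.13) and passed the filter only through the controls, so that 7 rose and 6 fell of the other 14. Over 5 scalings 7 to 8 rose and 7 fell.

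Around the EGR factors, Nab1, a corepressor that binds EGR proteins, rose by 1.08 ± 0.04, from 99.2 to 209 CPM, whereas Nab2, the second corepressor and itself a known EGR1 target, was at 21.8 and 21.0 CPM (-0.06 ± 0.07, edgeR adjusted p = 0.491). With the deposited totals Nab2 was lower (-0.29). Egr3 was below the filter at 0.452 CPM in the controls and 2.68 with CCL7, and was higher in the fit without the filter (log2 change 2.64). Egr4 and Wt1 were not analysed here. Of 6 genes of the serum response factor and its partners, 3 rose, 2 fell and Elk4 (-0.16 ± 0.11) did not pass. Elk3, a partner of the ternary complex type, rose by 1.07 ± 0.07, Srf by 0.41 ± 0.05 and Elk1 by 0.39 ± 0.08, and the actin-regulated coactivator genes Mrtfa (-0.76 ± 0.06) and Mrtfb (-0.58 ± 0.12) fell. Over 5 scalings 2 to 3 rose and 2 to 3 fell, and Elk1 did not pass with the deposited totals.

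Of 18 tested genes of the MAP kinase cascades that activate AP-1 and EGR factors, 5 rose, 8 fell and 5 did not pass, with a median of 0.02. The p38 activator gene Map2k6 fell from 6.80 to 1.10 CPM (-2.63 ± 0.29), with Rps6ka5, which encodes the kinase MSK1 (-1.72 ± 0.07), Map3k1 (-1.02 ± 0.12) and Map3k5 (-0.52 ± 0.11), both upstream of JNK. The ERK activator gene Map2k1 rose by 0.67 ± 0.07. Map2k6 and Rps6ka5 passed the filter only through the controls, and of the other 16 genes 5 rose and 6 fell. Over 5 scalings 3 to 6 of the 18 rose and 7 to 12 fell.

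The dual-specificity phosphatases, which switch MAP kinases off, were on a list of 9 genes, of which 7 were tested. Of these 5 rose, beside the background of 33.9%, 0 fell, and Dusp2 (-0.06 ± 0.11) and Dusp7 (-0.04 ± 0.06) did not pass. Dusp6, which acts on ERK, went from 13.6 to 66.4 CPM (2.29 ± 0.02). Dusp5 (1.77 ± 0.21), Dusp16 (1.65 ± 0.04), Dusp4 (1.64 ± 0.10) and Dusp1 (1.14 ± 0.09) were the others. Below the filter, Dusp10 was at 1.72 and 1.01 CPM and lower in every CCL7 library (log2 change -0.69 in the fit without the filter, edgeR adjusted p = 0.0144), and Dusp8 was at 0.605 and 0.723 CPM. Dusp5 passed the filter only through the CCL7 libraries, so its rise was bound to be counted. Of the other 6 genes 4 rose and 0 fell. The 5 rises passed under all 5 scalings, and Dusp7 was called lower with the deposited totals (-0.27).

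**Figure D5:**
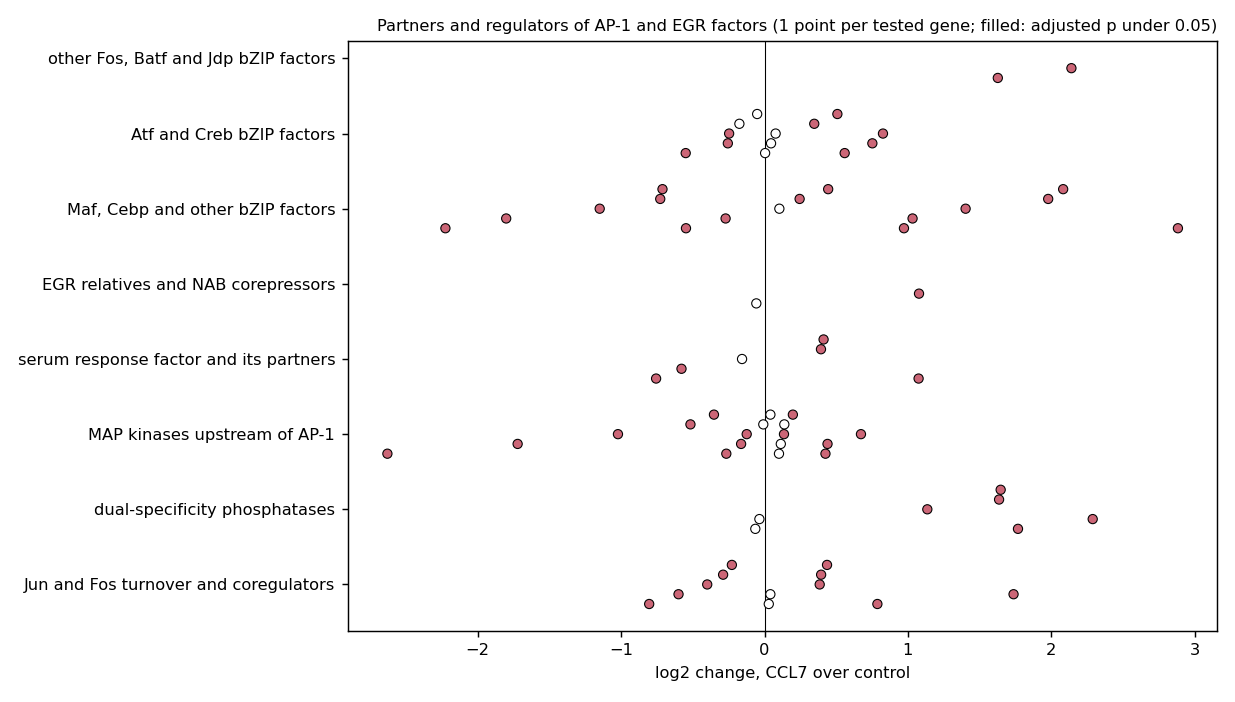
Log2 change with CCL7 of each tested gene in 8 lists of partners and regulators of AP-1 and EGR factors, 1 point per gene, spread vertically only to separate points; filled points had an adjusted p under 0.05. The phosphatases hold 5 filled points right of 0 and none left of it, while the MAP kinases and the wider bZIP genes lie on both sides.

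Genes that act on the stability or partners of Jun and Fos proteins moved both ways, 5 higher and 5 lower of 12 tested, with Itch (0.04 ± 0.08) and Ncor1 (0.03 ± 0.14) not passing. Trib1, a scaffold for the ubiquitin ligase COP1, rose by 1.74 ± 0.14 (passing the filter only through the CCL7 libraries), its relative Trib3 by 0.79 ± 0.07 and Cops5, first described as a Jun coactivator, by 0.44 ± 0.10. Nfatc1, whose protein binds DNA together with AP-1, fell (-0.80 ± 0.08), as did the deacetylase gene Sirt1 (-0.60 ± 0.05). Without Trib1, 4 of the other 11 genes rose and 5 fell. Over 5 scalings 4 to 5 of the 12 rose and 5 to 6 fell. Of the BATF partners, Irf8 was at 175 and 186 CPM (0.09 ± 0.03, edgeR adjusted p = 0.122) and Irf4 was below the filter at 2.68 CPM in the controls and 0.641 with CCL7. Irf4 was lower in the fit without the filter (log2 change -2.01). With the deposited totals Irf8 was lower (-0.15).

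Of 14 other immediate early genes tested, 6 rose, 5 fell and 3 did not pass, with a median of 0.12 (-0.12 on the deposited totals). Over 5 scalings 6 to 7 rose and 5 to 6 fell. Ier3, an apoptosis regulator, rose by 3.91 ± 0.11, the growth regulator Myc by 1.39 ± 0.08, the nuclear protein gene Csrnp1 by 1.31 ± 0.11 and Rgs1, which dampens chemokine receptor signals, by 0.90 ± 0.17. Klf2, which restrains inflammatory activation of macrophages, fell (-0.72 ± 0.06). Klf4 (0.13 ± 0.03), Klf6 (-0.08 ± 0.03) and Gadd45b (0.11 ± 0.16) did not pass. The nuclear receptor genes Nr4a1, Nr4a2 and Nr4a3, which are induced together with Egr1 in many cells, were all below the filter, at 1.81 CPM or less in either group. In the fit without the filter Nr4a3 was higher (log2 change 2.42), on 2, 4 and 4 control counts against 14, 14 and 26. Nr4a1 (0.51) and Nr4a2 (-0.47) did not pass there.

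Of 13 tested textbook AP-1 targets, 9 rose, 1 fell and 3 did not pass. Il1b, Ptgs2 and Mmp9 averaged 0.109, 0.115 and 0.142 FPKM in the controls and passed the filter only through the CCL7 libraries, so their rises were bound to be counted. Of the other 10, 6 rose and 1 fell, beside 33.9% higher and 35.2% lower of all genes tested. Their median log2 change was 1.09, against -0.01 for all genes tested. The largest rises on the log2 scale were those of Il1b (11.22 ± 0.16), Ptgs2 (8.48 ± 0.14), the gelatinase gene Mmp9 (6.52 ± 0.39), the monocyte attractant gene Ccl2 (5.05 ± 0.20) and Tnf (4.15 ± 0.15), all of which other factors such as NF-kB are also known to induce. The cell cycle gene Ccnd1 fell (-0.67 ± 0.20), and Plau (0.22 ± 0.17), Spp1 (-0.14 ± 0.11) and Vim (0.10 ± 0.03) did not pass. Over 5 scalings 8 to 10 rose and 1 to 3 fell, with Spp1 lower under 3 of them. Of 10 tested textbook EGR1 targets, 5 rose and 2 fell, beside the same 33.9% and 35.2%, with a median of 0.17. Tnf, which had the largest rise of the 5, and Cd44 (0.16 ± 0.01) are also on the AP-1 list, so the counts of the lists share genes. The 3 that did not pass included Nab2 and Vegfa (0.18 ± 0.11). The adhesion gene Icam1 rose by 2.26 ± 0.04 and Tgfb1 by 0.50 ± 0.07, while Id3, an inhibitor of helix-loop-helix factors, went from 162 to 10.6 CPM (-3.94 ± 0.12) and the growth factor gene Pdgfb fell (-0.97 ± 0.08). Over 5 scalings 3 to 5 rose and 2 to 4 fell.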

How the data were processed

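Raw whole-number counts and FPKM per gene and library were deposited by the authors in 1 table. Bowtie 0.12.2, mm8 and mm9 are listed, without saying what each was used for, per the submitters' processing notes. How reads were counted, with or without strand, and against which annotation is not given in the sources used here. FPKM as deposited is scaled by the total count. The lengths it implies equalled GENCODE M21 (GRCm38) exon lengths, within 0.5 base, for 9 of the 10 genes, so positions are from GENCODE M21 by gene identifier.

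The 10 genes and the gene lists were chosen with earlier results of these data known. Genes whose FPKM averaged 1 or more over the 6 libraries were tested on their counts with edgeR 4.0.16 in R 4.3.3 (glmQLFit, glmQLFTest, TMM, group as the only term, 2-sided) and adjusted by Benjamini-Hochberg over those genes. SEs come from the SDs of log2 CPM in each group. An exact permutation test over 3 against 3 libraries cannot go below p = 0.1. From each list, up to 5 passing genes with the largest log2 change were named, plus those not passing where there were at most 3. 1 gene that this rule names is not reported here. Alternatives were other scalings (deposited totals, DESeq2 size factors, upper quartile, quantile), DESeq2 1.42.0, limma 3.58.1 on log2 FPKM with pseudocounts of 1 and 0.1, other filters, counts divided by 2, a 1.5-fold test, a replicate block and leaving out each library. The edgeR filterByExpr filter was added after seeing the data. The planned comparison of proteins was not run.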

Additional observations from a re-analysis of the deposited data

How the results depend on the processing

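Of 187 log2 changes of the 10 genes under 19 alternatives, 164 kept their direction and side of the threshold, 6 lost the call, 8 gained one and 9 changed sign. Fos, Fosb, Fosl2, Junb, Atf3, Batf and Egr1 kept both under every alternative that gave them a value. The size of 2 of them moved: with limma on log2(FPKM + 1) Egr1 changed by 2.44 and Fosb by -0.11, and on log2(FPKM + 0.1) Fosb changed by -0.69, since a pseudocount shrinks the change of a low gene. The lost calls were all of Jund. Its log2 change was -8.46e-05 with the deposited totals, -0.0017 with limma on log2(FPKM + 1) and -0.0020 on log2(FPKM + 0.1). That of Jun, near 0 in the first place, was 0.0043 with DESeq2's size factors in edgeR, 0.0042 with DESeq2, 0.043 with no filter and 0.024 with edgeR's own filter, and ran from -0.027 to 0.023 when 1 library was left out. The number of the genes called lower was 3 with the deposited totals and with limma on FPKM, and 2 with upper-quartile scaling, quantile normalization, no filter or edgeR's own filter, against 1. The last 2 of these include Fosb. Without 1 library the genes called changed numbered 6 to 7 of 9, with 5 to 6 higher and 1 lower, and over all genes 6959 to 8044 were called against 7698. Tested against a 1.5-fold change, 2572 of all genes and 6 of the 9 passed. With no filter edgeR set no limit to the sharing of spread between genes, so its p-values may be too small. Same-numbered libraries did not deviate together (correlations of -0.08, -0.03 and -0.02), so the numbers were not taken as pairs. A replicate block gave 7432 genes and 7 of the 9. Depth limits Fosb and the control level of Egr1, which rest on few counts.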
